A study of Argopecten irradians irradians with 6 samples.

Results

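Of the 528 predicted microRNAs (miRNAs) counted in the adductor muscle of the bay scallop Argopecten irradians irradians, 80 were of low abundance, with 30 to 299 counts summed over 6 libraries. They were chosen by that sum and by a name that starts with a contig, and they are 80 of the 5446 rows of the count table. Another 34 predicted miRNAs had 300 counts or more, 240 had 1 to 29, and 174 were at 0 in every library. The sum that chose the 80 takes no account of strain. Small RNAs were sequenced from orange adductor muscle of QN Orange scallops (3 libraries) and from white adductor muscle of Bohai Red scallops (3 libraries), in a study of carotenoid accumulation in the orange muscle. From each strain 9 muscles were taken, and every 3 were pooled into 1 library, so strain cannot be told apart from colour and a group's spread is that of its pools. No treatment and no age is given in the labels for either group. The columns of the table carry a letter and a number, with no strain name. Columns with B were read as Bohai Red and those with G as QN Orange, an inference on which every direction given here depends. The number was read as the replicate number in the labels, also an inference. Other columns of the deposited TPM table, named BHR and BH, could also be read as Bohai Red and were not used. Were B not Bohai Red, the values given here as orange against white would compare groups named otherwise.

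A miRNA is cut from a hairpin precursor by Dicer and is loaded into an Argonaute protein, which it guides to messenger RNAs that pair with its seed. A predicted miRNA is a locus at which a program found small RNA reads that pile up on a possible hairpin in a genome assembly. It has no counterpart by name among known families, and low-count predictions of this kind can include fragments of other RNAs. No known function can be given for any of the 80, which are known here only by a contig and a number. Their sequences and their positions on the contigs were not analysed here.

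The table lists the same reads under many species' names, so depth was taken as the total over 1 row per family, the most abundant,, with each predicted miRNA as its own family. This total was 2092825 to 3758980 counts in the orange libraries and 3167068 to 4001516 in the white libraries. The lowest depth was that of orange replicate 2. The muscle families miR-1 and miR-133 were abundant in every library, and the 3 muscle families together had 293700 to 520900 counts per 1000000 (CPM, on scaled totals) in the orange libraries and 350100 to 509900 CPM in the white ones. The third muscle family, miR-206, had only 7, 1 and 7 counts in orange and 8, 3 and 5 in white libraries. The muscle sum thus came almost wholly from miR-1 and miR-133. Families known from other cell types were also present. The 6 neural families summed to 390.3 to 1373 CPM in the orange libraries and 558.9 to 637.5 CPM in the white ones, the 6 epithelial and sensory families to 2535 to 4812 and 1460 to 7520 CPM, and the 4 gut and digestive gland families to 1196 to 2654 and 2286 to 2975 CPM. The highest neural sum was in orange replicate 1 and the highest epithelial sum in white replicate 1.

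Most of the 80 low-count predicted miRNAs were found in both strains. A count in all 6 libraries was present for 52 of them, or 65.0%, while 14 had a count in 5 libraries, 8 in 4, 5 in 3 and 1 in 2. None was confined to a single library. Among the 34 predicted miRNAs with more counts, 31 were in all 6 libraries, and among the 240 with 1 to 29 counts, 7 were, while 66 of those 240 occurred in a single library. The number of libraries follows in part from the sum that chose the members.

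Detection at 1 count or more differed little between libraries. The members were chosen for a sum of 30 or more, which puts this detection near its ceiling of 80. A test on it therefore has little room to show a difference. In orange replicates 1 to 3 there were 75, 69 and 71 of the 80 with at least 1 count, and in white replicates 1 to 3 there were 73, 72 and 71. Orange libraries averaged 71.7 ± 3.06 and white libraries 72.0 ± 1.00 members (SD, n = 3 each), a difference of -0.33 (exact two-sided permutation p = 1, where 3 against 3 libraries cannot go below 0.1). At the depth of orange replicate 2, the expected numbers were 73.2, 69.0 and 67.8 in orange and 71.5, 71.1 and 69.0 in white libraries. With at least 3 counts asked for, 68, 58 and 62 were found in orange and 70, 69 and 61 in white libraries. All 3 orange libraries held 62 of the members, and all 3 white libraries held 67.

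**Figure D1:**
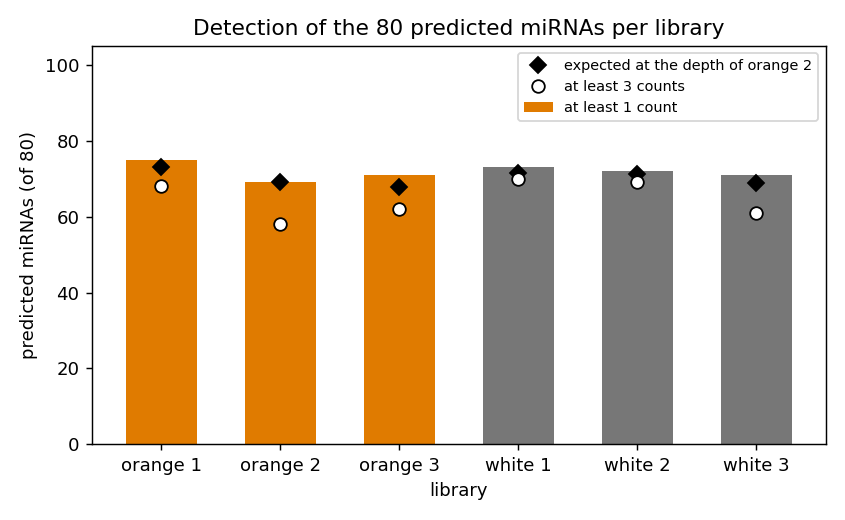
Number of the 80 predicted miRNAs found in each library, with orange muscle in orange bars and white muscle in grey bars. Bars are rows with at least 1 count, diamonds the number expected at the depth of orange replicate 2, and circles rows with at least 3 counts. The bars run from 69 to 75.

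Together the 80 rows held 2345, 673 and 1240 counts in orange replicates 1 to 3 and 1915, 1146 and 902 in white replicates 1 to 3. These are 0.0624%, 0.0322% and 0.0336% of the depth in orange and 0.0479%, 0.0336% and 0.0285% in white libraries. The library numbered 1 was highest in each strain and the groups overlapped. The difference of means was 0.00607 percentage points (exact two-sided permutation p = 0.7), and it turned to -0.00378 without orange replicate 1. A typical member had few counts in any 1 library. The median over members ran from 6 to 12 in the orange libraries and from 8 to 16 in the white libraries, so counting error alone is large for single values.

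**Figure D2:**
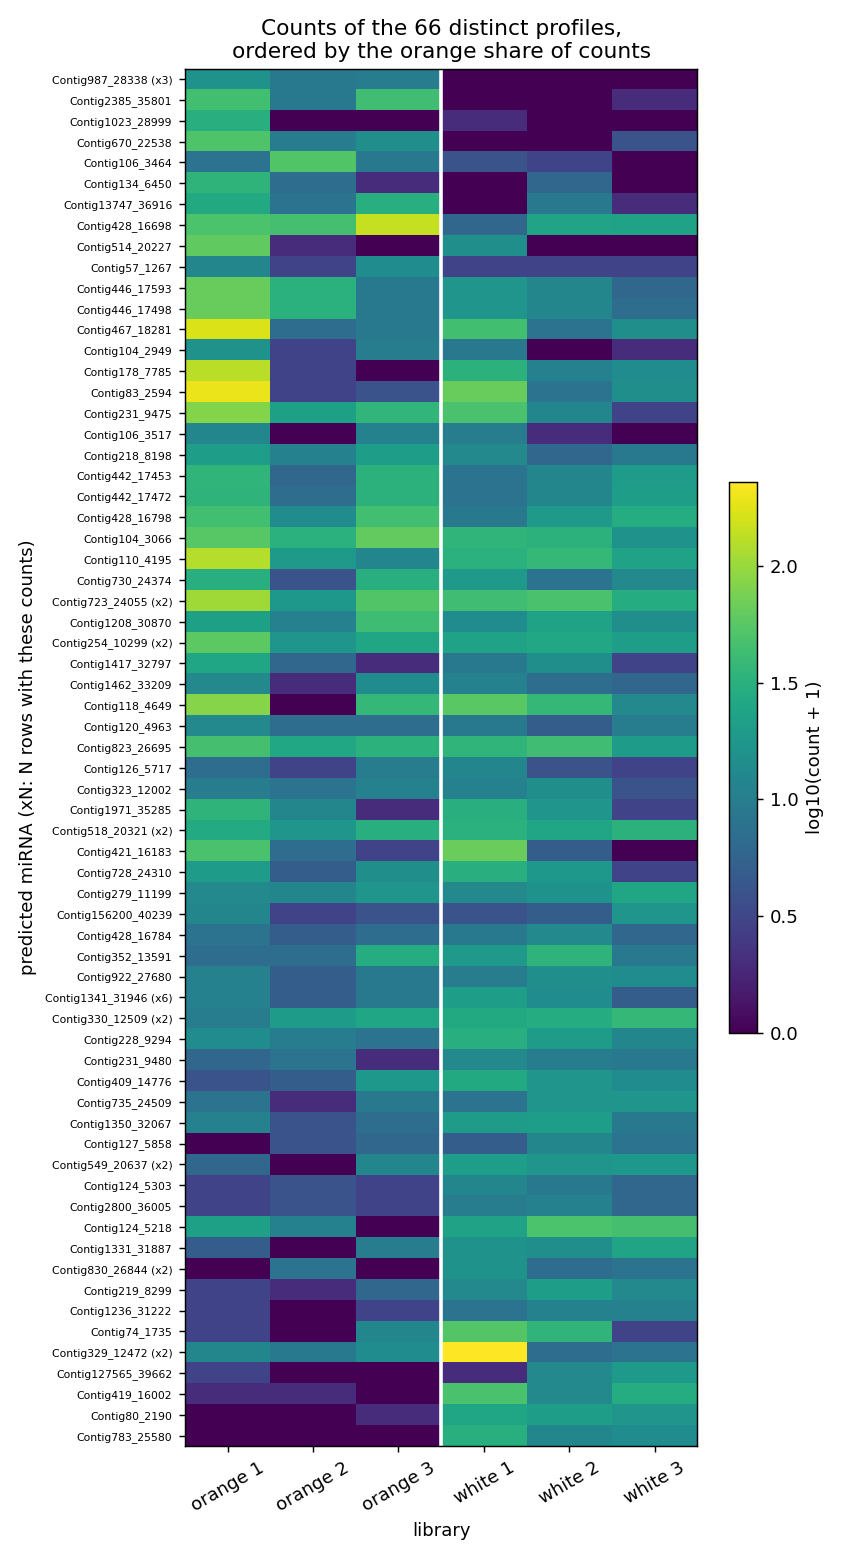
Counts of the 66 distinct profiles among the 80 predicted miRNAs, as log10(count + 1), in the 3 orange libraries (left) and 3 white libraries (right), ordered by the orange share of counts. Most rows are filled on both sides, while the rows at the top and bottom are dark in 1 strain.

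A small set was present in every library of 1 strain and nearly absent from the other. With 2 or fewer counts allowed in the other strain, 4 of the 80 were found in all 3 orange libraries and 4 of the 80 in all 3 white libraries. Over all 181 miRNAs with 30 counts or more, 1 row per family and the 80 included, the same pattern held for 5 (2.76%) in the orange and 4 (2.21%) in the white direction. Among the 67 named families with 30 counts or more it held for 0 in either direction, and among the 34 predicted miRNAs with more counts for 1. Among the 240 predicted miRNAs with 1 to 29 counts it held for 3 in the orange and 14 in the white direction. In either direction this was 7.08% of them, against 8 of the 80 members and 9.09% of their 66 distinct profiles. Since these 8 rows are picked for the difference they show, their counts are a description.

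In the orange direction, Contig2385_35801 had 43, 8 and 42 counts in the orange libraries and 0, 0 and 1 count in the white libraries. Its orange level was 9.07 ± 3.69 CPM and its white level 0.0993 ± 0.172 CPM (SD, n = 3 libraries each). The ratio of summed counts per summed scaled total was 115, with a 95% counting interval of 20.2 to 4597. The other 3 rows were Contig987_28338, Contig987_28340 and Contig987_28348, which all had 15, 8 and 9 counts in orange and 0, 0 and 0 in white libraries. They are identical in every library and lie on 1 contig, so they may be the same reads, and the 4 orange rows hold 2 distinct profiles. Against a floor of 3 counts over the white group, each Contig987 row was at least 13.2-fold higher in orange muscle. Intervals and floors cover counting error only, since reads that share a PCR origin are not independent.

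In the white direction, Contig783_25580 had 0, 0 and 0 counts in the orange libraries and 29, 11 and 13 in the white libraries, at least 14.3-fold lower in orange muscle against a floor of 3 counts over the orange group. Contig80_2190 had 0, 0 and 1 count in orange and 24, 20 and 16 in white libraries. It was 48.5-fold lower in orange, with a 95% counting interval of 8.37 to 1945. These white counts were also the most even of the 4, at 5.30 ± 0.945 CPM (SD, n = 3 libraries). Contig419_16002 had 1, 1 and 0 counts in orange and 47, 12 and 28 in white libraries. It was 35.1-fold lower in orange, with an interval of 9.44 to 295. The fourth, Contig127565_39662, had 2, 0 and 0 counts in orange and 1, 12 and 18 in white libraries, so white replicate 1 was below orange replicate 1 and the groups overlapped.

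Just outside the limit stood Contig670_22538, with 50, 9 and 14 counts in orange and 0, 0 and 3 in white libraries. Its ratio was 30.1, with a 95% counting interval of 9.91 to 149. All white libraries lay below all orange libraries.

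**Figure D3:**
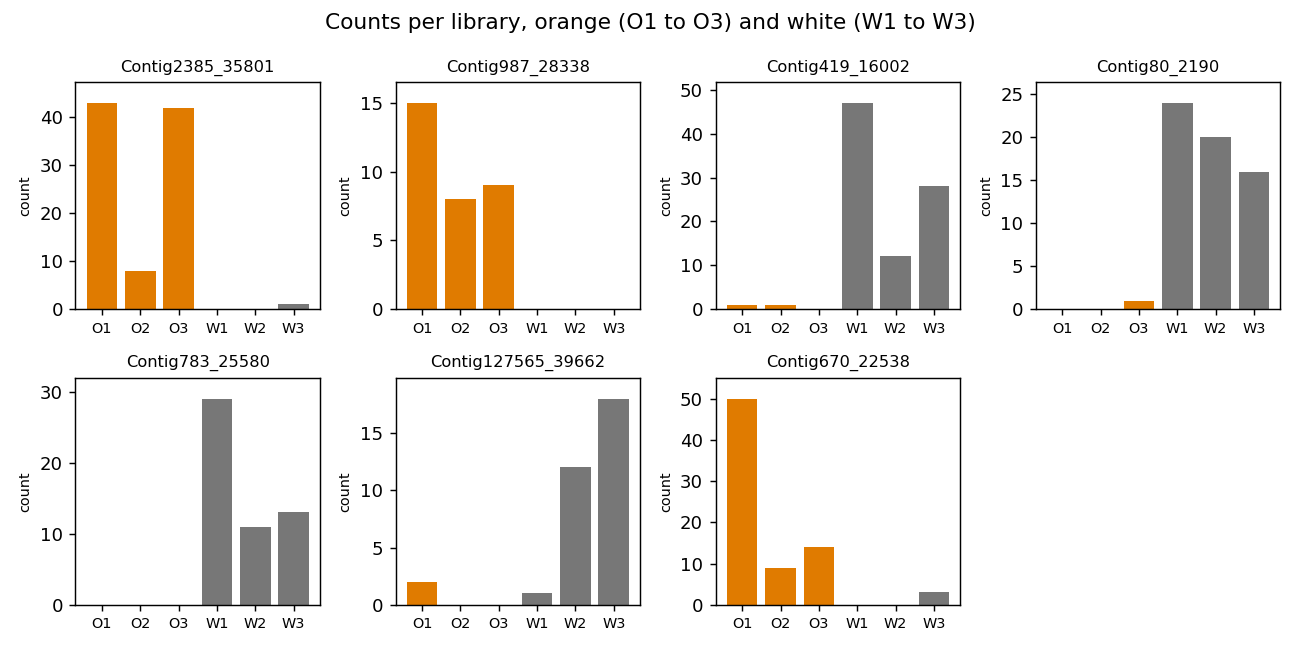
Counts in each library for the strain-restricted predicted miRNAs and for Contig670_22538, with orange libraries (O1 to O3) on the left and white libraries (W1 to W3) on the right of each panel. The 3 identical Contig987 rows are drawn as 1. Each panel has its own count axis, from 0.

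In the comparison of orange with white muscle over 142 tested miRNAs, 4 of the low-count predicted miRNAs passed an adjusted p of 0.05 by edgeR's quasi-likelihood test with Benjamini-Hochberg adjustment. Contig2385_35801 rose in orange muscle by 6.19 on the log2 scale (SE 1.06, adjusted p = 0.0146). Contig783_25580 fell, its log2 difference being -6.95 (SE 0.961, adjusted p = 0.0146), as did Contig80_2190 at -5.22 (SE 0.914, adjusted p = 0.0146) and Contig419_16002 at -4.77 (SE 0.963, adjusted p = 0.0196). Fitted differences of rows with near-empty groups depend on the prior count and are no bounds. These 4 are among the 8 rows described above, so the test and the description rest on the same counts. They passed the filter on low counts through the strain in which they were high.

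The filter kept 47 of the 80, and 33 were not tested. The 4 calls, 1 higher and 3 lower, stand beside 13 calls among all 142 tested, or 9.15%, of which 7 (4.93%) were higher and 6 (4.23%) lower in orange. Calls were made for 3 of 33 tested predicted miRNAs with more counts and for 6 of 62 named families, so the share of members called was near that of the others. At an unadjusted p under 0.05 there were 11 members, beside 26.8% of all tested. With no filter all 80 were fitted and 10 passed, 6 higher and 4 lower, beside 5.91% of the 491 rows fitted. The 6 that joined were the 3 Contig987 rows, Contig106_3464, Contig670_22538 and Contig127565_39662. The 3 Contig987 rows have identical counts and may be the same reads, so the 10 are not 10 separate calls.

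The number of calls changed when single libraries were left out, which also leaves fewer libraries for the test. No member passed without white replicate 2 (0 of 60 tested, 11 at an unadjusted p under 0.05, edgeR) or without white replicate 3 (0 of 67, also 11), and in these fits 0 of all miRNAs passed (29 and 34 at an unadjusted p under 0.05). With all 6 libraries the DESeq2 test called 6 members. Without orange replicate 3 there were 9 calls among the members, and without white replicate 1 there were 7. Adjusted p without white replicate 2 was 0.0671 for Contig2385_35801, 0.0604 for Contig783_25580, 0.0595 for Contig80_2190 and 0.0582 for Contig419_16002 (edgeR). The 4 called miRNAs kept the sign of their difference in each of the 17 other settings, which their separated groups fix. Over these settings Contig2385_35801 passed in 14, Contig783_25580 and Contig80_2190 in 13 each, and Contig419_16002 in 11. The adjusted p ran from 2.31e-05 to 0.0744 for Contig2385_35801 and from 1.90e-04 to 0.0843 for Contig419_16002. Its range was 8.50e-05 to 0.0921 for Contig783_25580 and 1.90e-04 to 0.0744 for Contig80_2190.

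**Figure D4:**
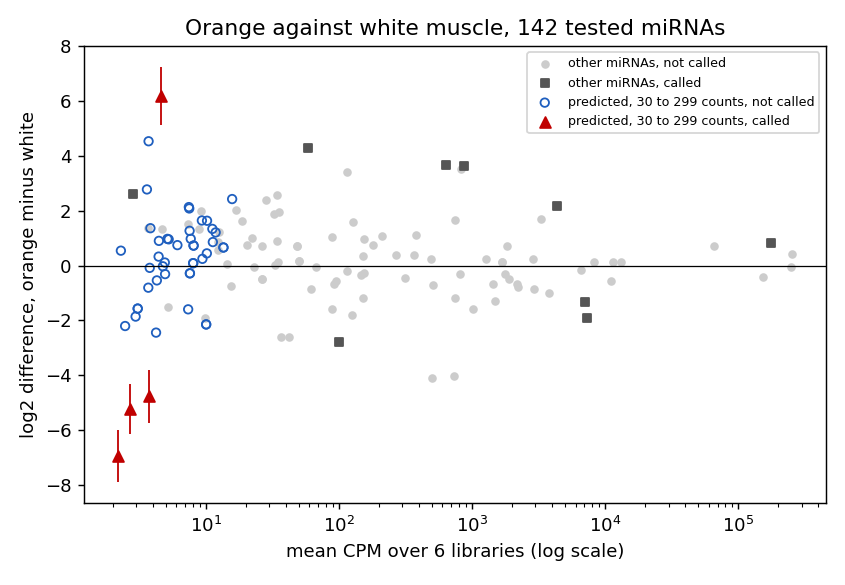
Log2 difference of orange minus white muscle against mean CPM (log scale) for the 142 tested miRNAs. Red triangles are the 4 called low-count predicted miRNAs with their SE, open circles the other 43 tested members, and grey marks all other miRNAs, squares where called. The members lie at the low end of the CPM axis.

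The other members with the smallest p did not pass. Toward orange, Contig670_22538 stood at a fitted log2 difference of 4.53 (SE 1.20, adjusted p = 0.0581, edgeR) and passed by the DESeq2 test (adjusted p = 0.00947, with a range of 0.0011 to 0.246 over 17 other settings). Contig428_16698 had 48, 45 and 141 counts in orange and 5, 23 and 22 in white libraries, with every orange library above every white one, and its log2 difference came to 2.43 (SE 0.884, adjusted p = 0.158). Contig218_8198 had 20, 10 and 20 counts in orange and 12, 5 and 8 in white libraries. In CPM its orange level was the most even of the 4 rows described in this paragraph, at 5.56 ± 0.753 against 2.12 ± 0.451 in white (SD, n = 3 each). The log2 difference was 1.36 (SE 0.539, adjusted p = 0.160). Contig13747_36916 had 26, 7 and 29 counts in orange and 0, 8 and 1 in white libraries, which gave a log2 difference fitted at 2.78 (SE 1.17, adjusted p = 0.180). In CPM, all orange libraries lay above all white ones in each of these 4. Such separation toward orange was seen for 19.3% of all 181 miRNAs with 30 counts or more. Contig446_17498 and Contig446_17593, given below, had a smaller p than Contig13747_36916 (adjusted p = 0.160 each, edgeR), and their groups overlapped.

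Toward white, Contig219_8299 had 2, 1 and 5 counts in orange and 12, 20 and 12 in white libraries, with no overlap and a log2 difference fitted at -2.20 (SE 0.699, adjusted p = 0.119, edgeR). It passed by the DESeq2 test (adjusted p = 0.0285) and with library totals as the scale (adjusted p = 0.0475, edgeR), in a range of 0.0265 to 0.386 over 17 other settings. Contig1331_31887 had 4, 0 and 9 counts in orange and 15, 14 and 23 in white libraries. Its log2 difference was -1.86 (SE 0.892, adjusted p = 0.233). Contig74_1735 had 2, 0 and 11 counts in orange and 52, 34 and 2 in white libraries, where white replicate 3 fell among the orange values, and its log2 difference was -2.44 (SE 1.30, adjusted p = 0.270). The pair Contig549_20637 and Contig549_20639 had the same counts, 5, 0 and 11 in orange and 20, 16 and 17 in white libraries, and their log2 difference was -1.57 (SE 0.874, adjusted p = 0.270).

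Over the 47 tested members, 29 log2 differences were above 0 and 18 below, with a median of 0.45, against a median of 0.20 over all 142 tested. The counts above and below 0 depended on the scale: they were 26 and 21 with DESeq2 size factors, 26 and 21 with library totals, and 17 and 30 with upper-quartile factors. The median over all tested miRNAs moved with them, to -0.07, -0.01 and -0.39. Without the filter the 80 members split into 40 and 40. Without orange replicate 1 there were 26 above and 34 below 0, with a median of -0.34, and without both libraries numbered 1 the median was 0.01. The groups did not overlap in CPM for 12 members higher and 9 lower in orange, of 80. These are 15.0% and 11.3% of the members, against 19.3% and 13.3% of all 181 miRNAs with 30 counts or more, and 22.8% and 14.9% of the 101 of these that are not members. Per unscaled depth, the numbers were 11 higher and 10 lower for members and 28 higher and 36 lower over the 181. The SE of the log2 difference had a median of 0.855 in the members and 0.583 in the other tested miRNAs. A difference of 1 on the log2 scale is near the error of a typical member.

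Several members owed most of their counts to 1 library. At least 90% of the counts lay in 1 library for 1 member, Contig1023_28999, which had 29, 0 and 0 counts in orange and 1, 0 and 0 in white libraries. At a bar of 75% there were 4. They were Contig1023_28999, Contig514_20227 (60, 1 and 0 in orange and 14, 0 and 0 in white libraries) and the identical pair Contig329_12472 and Contig329_12474. The pair had 11, 8 and 13 counts in orange and 228, 6 and 7 in white libraries, so white replicate 1 held 83.5% of the counts and was 22.5-fold above the mean of the other white libraries. Its log2 difference, -2.14 (SE 1.29, adjusted p = 0.306, edgeR), turned to 0.78 without white replicate 1.

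At least 50% of the counts lay in 1 library for 16 members. That library was orange replicate 1 for 8 and white replicate 1 for 6, and it was orange replicate 2 and white replicate 3 for 1 each. The same held for 5 of the 34 predicted miRNAs with more counts and 172 of the 240 with 1 to 29. Raw counts follow depth, largest in the libraries numbered 1 of each strain. In CPM the top library held 41.7% for Contig419_16002, 43.5% for Contig421_16183, 43.7% for Contig783_25580 and 42.8% (white replicate 2) for Contig74_1735. These were counted above for white replicate 1. The Contig329 pair kept 74.7%, and Contig110_4195, of orange replicate 1, had 43.2%. The libraries numbered 1 were not high for most members, whose median fold over the other libraries of the strain was 0.989 for orange replicate 1 and 0.800 for white replicate 1. The 1 member of orange replicate 2 was Contig106_3464, with 7, 51 and 8 counts in orange and 3, 2 and 0 in white libraries.

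A group of members was high in orange replicate 1 and, less so, in white replicate 1. Its members were singled out after their values were seen. Contig83_2594 had 195, 2 and 3 counts in orange and 64, 7 and 14 in white libraries, which put orange replicate 1 at 43.9-fold and white replicate 1 at 3.95-fold the other libraries of their strain. Contig467_18281 had 171, 6 and 8 counts in orange and 43, 7 and 14 in white libraries, with folds of 13.4 and 2.66. Contig178_7785 had 130, 2 and 0 counts in orange and 32, 10 and 13 in white libraries, with folds of 49.6 and 1.79. In CPM, orange replicates 2 and 3 lay below every white library in Contig83_2594 and Contig178_7785. In Contig467_18281 they stood at 3.72 and 2.30 CPM, above white replicate 2 at 2.24 CPM and below white replicates 1 and 3. Contig421_16183 had 47, 6 and 2 counts in orange and 65, 4 and 0 in white libraries. Its folds were 5.18 and 20.1, so there white replicate 1 was the higher.

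Some families of other cell types were also high in libraries numbered 1, and others of the same lists were not. The most abundant row of miR-124, a neuronal miRNA, had 2554, 21 and 41 counts in orange and 96, 60 and 69 in white libraries. That of miR-9, another neural miRNA, had 261, 9 and 33 in orange and 163, 23 and 19 in white libraries, and that of miR-8, an epithelial miRNA, 2568, 284 and 463 in orange and 2568, 311 and 313 in white libraries. Fewer cells of a type and less RNA per cell cannot be told apart in pooled muscle, and the part of other cell types in these members' counts was not tested. In white replicate 1, miR-124 was at 0.957-fold the other white libraries. The neural miR-7 stood at 1.20-fold in orange replicate 1 and 1.14-fold in white replicate 1, and miR-153 at 1.12-fold and 0.689-fold. Of the other epithelial and sensory families, miR-263, miR-183, miR-96 and miR-182 stood at 1.23-fold to 2.17-fold in orange replicate 1. In white replicate 1 they stood at 3.82-fold to 9.3-fold. The epithelial miR-141 had 5 counts in orange replicate 1 and 0 in white replicate 1. The neural miR-219 had 0, 2 and 2 counts in orange and 19, 0 and 0 in white libraries. The neural miR-137 had 84, 0 and 1 counts in orange and 14, 14 and 3 in white libraries. It stood at 138-fold in orange replicate 1 and 1.03-fold in white replicate 1. The gut families miR-375, miR-194 and miR-216 stood at 0.221-fold to 0.682-fold the other orange libraries in orange replicate 1. The log2 difference of Contig467_18281 was 1.64 (SE 1.16, adjusted p = 0.390, edgeR) and turned to -0.81 without orange replicate 1.

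The 80 rows were not 80 separate measurements. They held 66 distinct count profiles on 60 contigs, and 23 rows shared their profile with at least 1 other member. Beyond the first row of each profile, the repeats held 1491 of 8221 counts, or 18.1%. Of the 34 predicted miRNAs with more counts, 6 rows shared their profile. None of the 80 (0 rows) had the same counts as a row with a known family's name.

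The largest set of repeats was on Contig1341, where 6 rows numbered from 31946 to 31952 each had 10, 4 and 8 counts in orange and 20, 13 and 4 in white libraries. On 7 contigs all members had the same counts, 19 rows in all. They were Contig1341, Contig987, Contig254, Contig329, Contig518, Contig549 and Contig830. In 2 further cases the shared profile lay on different contigs. Contig330_12509 and Contig417_15845 both had 9, 19 and 24 counts in orange and 26, 28 and 36 in white libraries, and Contig723_24055 and Contig831_26889 both had 104, 17 and 51 in orange and 42, 47 and 28 in white libraries. The second of these pairs had the highest sum of all members, 289.

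Other rows on 1 contig were alike but not identical. Contig446_17498 and Contig446_17593 had 64, 31 and 8 counts each in orange and differed in white replicate 3 alone, at 6 and 5 counts beside 16 and 11 in the other white libraries. Their log2 differences were 2.08 (SE 0.855) and 2.13 (SE 0.871), with an adjusted p of 0.160 each (edgeR). Contig442_17453 and Contig442_17472 differed by at most 1 count in every library, at 34, 5 and 32 against 33, 6 and 32 in orange and 7, 11 and 19 against 7, 11 and 20 in white libraries. Rows with such near-equal counts are uncertain as separate miRNAs.

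Contig428 carried 3 members and an abundant predicted miRNA, Contig428_16695, with 1651, 2303 and 9571 counts in orange and 182, 483 and 687 in white libraries. The member nearest to it by number, Contig428_16698, held 1.47% to 4.76% as many counts in each library and had its highest and its lowest count in the same libraries, orange replicate 3 and white replicate 1. The fitted log2 difference of Contig428_16695 was 3.53 (SE 0.923, adjusted p = 0.0581, edgeR), and that of Contig428_16698 was 2.43. Neither passed the threshold. Contig428_16798 had 43, 13 and 43 counts in orange and 8, 18 and 28 in white libraries, where the ranges overlapped. Contig428_16784 was low throughout, with 7, 4 and 6 counts in orange and 8, 12 and 5 in white libraries.

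Sharing a contig did not mean sharing a profile. Contig118_4649 lay 2 numbers from Contig118_4651, which had 21068, 13510 and 27938 counts in orange and 7434, 5868 and 4810 in white libraries and rose in orange muscle (log2 difference 2.16, SE 0.310, adjusted p = 0.0146, edgeR). Contig118_4649 itself had 85, 0 and 36 counts in orange and 56, 36 and 12 in white libraries, with a 0 in the library where its neighbour had 13510. On Contig231, Contig231_9475 had 83, 21 and 35 counts in orange and 47, 11 and 2 in white libraries, while Contig231_9480 had 5, 7 and 1 in orange and 12, 9 and 8 in white libraries. On Contig104, Contig104_3066 had 55, 31 and 61 counts in orange and 34, 32 and 15 in white libraries, with a log2 difference estimated at 1.21 (SE 0.597, adjusted p = 0.233, edgeR). Contig104_2949 had 15, 2 and 9 in orange and 8, 0 and 1 in white libraries. Both leaned toward orange, which held 64.5% and 74.3% of their counts. Contig104_2981, with more counts on the same contig, had 102, 77 and 100 in orange and 164, 124 and 86 in white libraries. Its log2 difference was 0.04 (SE 0.535, adjusted p = 0.952, edgeR).

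**Figure D5:**
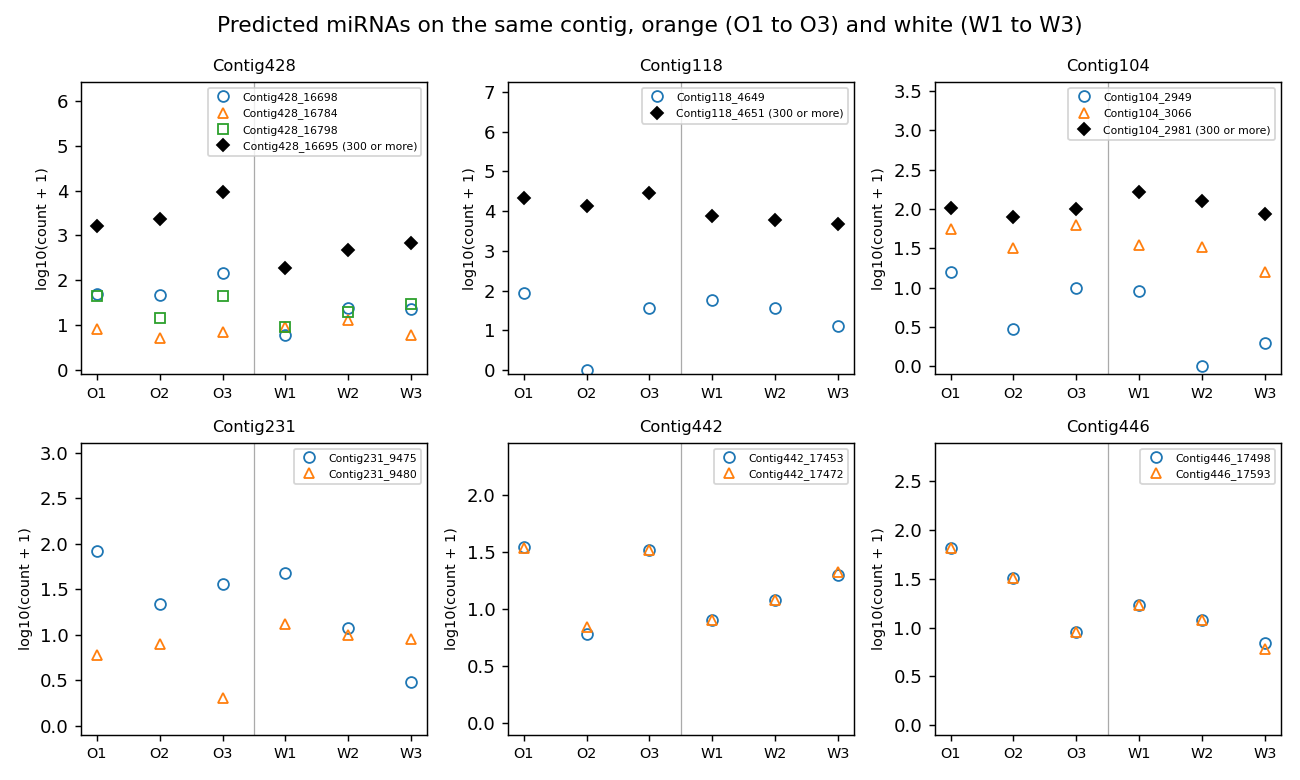
Counts as log10(count + 1) of predicted miRNAs on 6 contigs, in orange libraries (O1 to O3) and white libraries (W1 to W3). Open marks are members with 30 to 299 counts and black diamonds are predicted miRNAs with 300 counts or more on the same contig. On Contig442 and Contig446 the marks nearly coincide, while on Contig118 and Contig231 they do not run together.

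The steadiest members present in every library were the identical pair Contig518_20321 and Contig518_20332. Each had 27, 16 and 30 counts in orange and 31, 24 and 32 in white libraries, with a coefficient of variation of 19.7% over the 6 libraries. Their level averaged 8.31 ± 1.79 CPM over the orange libraries and 7.78 ± 1.70 CPM over the white ones (SD, n = 3 each), and their log2 difference was 0.09 (SE 0.550, adjusted p = 0.921, edgeR). Contig922_27680 followed at 36.4% and Contig823_26695 at 37.3%. The highest coefficients of variation among members present in every library were those of the pair Contig329_12472 and Contig329_12474 at 171%, Contig83_2594 at 157% and Contig467_18281 at 146%.

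At the ends of the range, the rows just inside were Contig1023_28999 and Contig127_5858 with a sum of 30, and Contig723_24055 and Contig831_26889 with 289. Just outside were Contig234_9639 and Contig234_9640 with 28 each, and Contig849_27019 with 345 and Contig110_4205 with 347. Contig110_4205 had 157, 2 and 188 counts in orange and 0, 0 and 0 in white libraries. Contig110_4195, a member on the same contig, had 124, 18 and 11 in orange and 31, 36 and 22 in white libraries.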

How the data were processed

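Small-RNA counts of 6 libraries, 3 orange and 3 white, were used as deposited. The authors deposited whole-number counts per miRNA name with no normalization, from the values in the file. The adapter trimming, aligner, miRNA reference and prediction tool are not given in the sources used here. A deposited TPM table of the same libraries, which has 9 further columns of per-sample values, was not used. The members and lists were chosen with earlier results of these data known.

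The main fit took the most abundant row of each family and every predicted miRNA as its own row. It used edgeR 4.0.16 in R 4.3.3 (TMM, filterByExpr by group, glmQLFit with robust = TRUE, glmQLFTest) with a threshold of 0.05 on Benjamini-Hochberg adjusted p. Log2 differences are orange minus white, and the SE is the size over the square root of F. CPM, ratios of summed counts and floors use TMM-scaled totals. DESeq2 1.42.0, other scales, filters and row sets were alternatives. The fit was tested on simulated counts whose spread between libraries was capped, which does not show how it does at the spread of the low-count members. Expected detection at a lower depth was computed analytically. Counting intervals are exact, from the binomial split of summed counts. Since nothing beyond the pooling says how the libraries were made, p-values measure the spread between pools.

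Named members were the 10 higher and 10 lower with the smallest p, strain-restricted rows, rows mostly in 1 library, rows sharing a contig, the steadiest and most variable, and the rows at the ends of the range. Others were named after their values were seen, among them Contig178_7785, Contig421_16183 and Contig514_20227.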

Additional observations from a re-analysis of the deposited data

How the results depend on the processing

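The 4 member calls became 10 with no filter, 0 with every row of the table fitted (13 members at an unadjusted p under 0.05, edgeR) and 1 with the replicate number as a block. Of the 10, 3 were the identical Contig987 rows. All calls, 13 in the main fit, became 20 with library totals, 33 by the DESeq2 test, 29 with no filter and 0 with every row. Leaving out 1 library gave 0 to 9 member calls and 0 to 20 calls in all, detection differences of -2.0 to 1.0 and share differences of -0.00378 to 0.0117 percentage points. Higher and lower calls among all miRNAs were 7 and 6 with TMM, 3 and 6 with DESeq2 size factors, 8 and 12 with library totals and 2 and 9 with upper-quartile factors. With identical rows kept once, 2 profiles were restricted to orange. With 0 counts allowed in the other strain, 1 row was restricted to white. A bar of 75% gave 4 rows mostly in 1 library. The log2 difference of Contig329_12472 and Contig329_12474 turned to 0.94 without both libraries numbered 1 and ran from -2.77 to 0.78 when 1 library was left out, and that of Contig467_18281 ran from -0.81 (without orange replicate 1) to 2.31. The detection difference, -0.33, changed to 1.0 without orange replicate 2, to 0.17 without white replicate 1 and to 0.0 with orange replicate 3 left out. The causes were not tested.

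Libraries with the same number share no stated source. For this reason the numbers were not taken as pairs. Their deviations from the strain means correlated at 0.195, -0.0203 and 0.157, and those of libraries with different numbers at -0.267 to 0.1695. With 3 libraries per strain, these values cannot decide whether the libraries were paired. Of the 4 called members, 1, Contig2385_35801, passed with the replicate block. A median member had 6 to 16 counts in a library. The variance between libraries of a strain, over that of counting alone, had a median of 2.2 in orange and 3.7 in white. Small differences were not detectable with these counts and this spread, and the part of each was not tested.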
